A study of Mus musculus with 3 samples.

Results

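The TRIM family of tripartite motif ubiquitin ligases was taken as every gene whose symbol is Trim followed by a number and at most 1 letter and which has at least 1 protein-coding transcript. This rule gave 68 genes of 55450 annotated, of which 21901 have a protein-coding transcript. RNA bound to chromatin, a fraction enriched in transcripts that are still being made or have not left the nucleus, was sequenced after ribosomal RNA depletion. Every library came from the same condition. The cells were C57BL/6J macrophages derived from bone marrow in culture. They were held in 100 ng/ml Lipid A, the Toll-like receptor 4 agonist of bacterial lipopolysaccharide, for 12 h, then kept without it for 12 h, and then exposed to 100 ng/ml Lipid A for a further 120 min. The 3 libraries are biological replicates made from 1 µg (replicate 1), 250 ng (replicate 2) and 500 ng (replicate 3) of RNA, and the labels record neither the age nor the sex of the mice and give the same donor entry for all 3. Macrophages without Lipid A were not analysed here, so every value is a level in restimulated cells and none is a response. The comparison made was between members linked to interferon and the others.

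TRIM proteins join a RING domain, which recruits a ubiquitin-charged conjugating enzyme, to B-box zinc fingers and a coiled coil, and most end in a domain that selects the substrate, commonly a B30.2/SPRY domain. Many are induced by type I interferon, which macrophages make after Toll-like receptor 4 engagement, and these act in virus restriction or tune the pathways that detect viral nucleic acid and bacterial products. Others serve in chromatin silencing, development, muscle or the nervous system. The interferon-linked list held 16 members known as type I interferon-induced in mouse or human, and the remaining 52 formed the other list. The list was drawn up from general knowledge with earlier results of these data known, so it is not independent of them. It may also be incomplete, so the other list may hold interferon-induced members. Every contrast between the lists depends on this split.

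Replicates 1, 2 and 3 had 10293545, 17820066 and 17548564 expected counts in all, and the 68 genes took 0.342%, 0.313% and 0.317% of them. Values are TPM, a relative abundance per transcript length, given as mean ± SD over n = 3 libraries. All 9 macrophage markers had 1 TPM or more in each library and summed to 1061 to 1678 TPM, while 1 of 34 markers of muscle, neurons, germ cells, red cells, lymphocytes, neutrophils and fibroblasts did so (Cd4, 1.99 ± 1.24) and 18 had no count. Replicate 1 had the fewest counts and the largest RNA input, so depth, input and replicate cannot be told apart in what follows.

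The letters near the start sites are shown first and use no expression value. The interferon-linked list was chosen for known interferon induction, so counts of an interferon motif are not independent of that choice. Whether the motif relates to the levels was not tested. The letters searched were GAAA, any 2 bases and GAAA again, the repeated core of the interferon-stimulated response element that interferon regulatory factors and the ISGF3 complex bind, on both strands from 250 bases before to 50 after each RefSeq start (GRCm38.p6). Of 53 members with such a sequence, matched by symbol, 8 of 15 interferon-linked members (53.3%) held it, against 1 of 38 other members (2.63%) and 1079 of 27025 genes of all kinds (3.99%). In 46 of the 53 members, Trim12a not among them, bases after the RefSeq start were found in the gene's own GENCODE transcripts, and of these 7 of 14 interferon-linked members and 1 of 32 others held the motif. The sites below are each 30 bases long, 5′ to 3′ on the strand on which the motif reads as searched, with the motif or overlapping motifs in capitals.
Trim21: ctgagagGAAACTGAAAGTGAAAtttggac
Trim26: ggcccgaGAAAAGGAAAGTGAAAtcggaag
Trim30a: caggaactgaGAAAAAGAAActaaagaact
Trim30d: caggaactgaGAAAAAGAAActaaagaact
Trim34a: gcagagaaaaGAAACTGAAActccaaacca
Trim5: ctctggaaatGAAACAGAAAccacaactct
Trim12a: ctctggaaatGAAACAGAAAccacaactct
Trim12c: agctggaaatGAAACAGAAAccacaactct
Trim2: ctgtcttagaGAAAAGGAAAccaaagctga

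Trim21 (chr7:102565447-102565476, minus strand) and Trim26 (chr17:36836979-36837008, minus strand) each held 2 overlapping copies, which form a run of 3 GAAA units. The Trim30a site (chr7:104465210-104465239, plus strand) and the Trim30d site (chr7:104507871-104507900, plus strand) were identical over all 30 bases, as were those of Trim5 (chr7:104288136-104288165, plus strand) and Trim12a (chr7:104315466-104315495, plus strand). These neighbouring genes share their sequence, so the 8 members are not 8 independent sites. Trim12c (chr7:104353359-104353388, plus strand) and Trim34a (chr7:104244457-104244486, minus strand) are neighbours of the same genes on chromosome 7. Trim2 (chr3:84212791-84212820, plus strand) was the 1 member of the other list with a match.

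Measured along the gene from its start, the motif began at -160 in Trim26, -49 in Trim5, -41 in Trim30d, -36 in Trim30a and -29 in Trim12c, and after the start at 11 in Trim12a and Trim34a, 14 in Trim21 and 29 in Trim2. A second RefSeq start of Trim30a also had a copy, at position 3. The 250 bases before the start of the highest member and of the member whose sites lay farthest upstream are given on the gene's strand, with the motif in capitals and therefore in reverse complement.
Trim30a, chr7:104465194-104465443, minus strand: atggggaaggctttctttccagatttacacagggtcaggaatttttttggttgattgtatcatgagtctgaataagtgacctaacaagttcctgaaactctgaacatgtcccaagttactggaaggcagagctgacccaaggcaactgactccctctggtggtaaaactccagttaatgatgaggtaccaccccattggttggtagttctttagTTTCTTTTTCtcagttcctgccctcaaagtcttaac
Trim26, chr17:36836896-36837145, plus strand: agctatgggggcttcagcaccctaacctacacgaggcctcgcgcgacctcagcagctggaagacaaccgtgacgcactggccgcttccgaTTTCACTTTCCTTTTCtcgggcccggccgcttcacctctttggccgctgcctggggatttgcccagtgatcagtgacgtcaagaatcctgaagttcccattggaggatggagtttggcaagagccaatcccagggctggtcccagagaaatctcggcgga

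Motifs of other pathways gave shares that differed less between the lists. TTC, any 3 bases and GAA, the core bound by STAT dimers, was present in 2 of 15 interferon-linked members, Trim30c and Trim38, in 4 of 38 others and in 9.55% of all genes. GGGA, any 2 bases and TTCC, a form of the NF-kB site, was present in 0 of 15 interferon-linked members, in 1 of 38 others (Trim28, at -176) and in 1.63% of all genes. A match describes letters in this window and is not a measured binding site. No sequence could be searched for 15 members, of which 1, Trim14, was interferon-linked. The rest were of the other list, among them Trim35 and Trim3, its 2 highest. Of members with 1 TPM or more in every library, 13 of 14 interferon-linked members were searched, but only 14 of 23 others.

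Of the 68 members, 37 (54.4%) had 1 TPM or more in each of the 3 libraries and are called expressed, against 42.2% of protein-coding genes. Among interferon-linked members 14 of 16 (87.5%) were expressed, against 23 of 52 others (44.2%), the others thus lying near the share of all genes. A level above the median expressed protein-coding gene, which stood at 9.99, 13.96 and 12.1 TPM in replicates 1, 2 and 3, was held in every library by 12 of 16 interferon-linked members and 8 of 52 others, beside 18.6% of protein-coding genes. In a bulk fraction, fewer cells making a transcript and less transcript per cell cannot be told apart.

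The median interferon-linked member had 48.7, 57.7 and 57.1 TPM in replicates 1, 2 and 3, and the median other member had 0.61, 0.96 and 0.96 TPM. The interferon-linked median was the higher in each library. On the log2(TPM + 0.1) scale the interferon-linked median was 5.76 ± 0.13 and the other median -0.16 ± 0.30 (SD, n = 3), beside -1.01 ± 0.09 over all protein-coding genes. The difference within a library was 6.12, 5.84 and 5.80, with a mean of 5.92 ± 0.17, which is 60.5-fold on that scale. With expressed members alone the difference was 2.84 ± 0.24 or 7.16-fold, less than over all members. There is 1 condition and genes are not replicates, so no test was made of it.

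**Figure D1:**
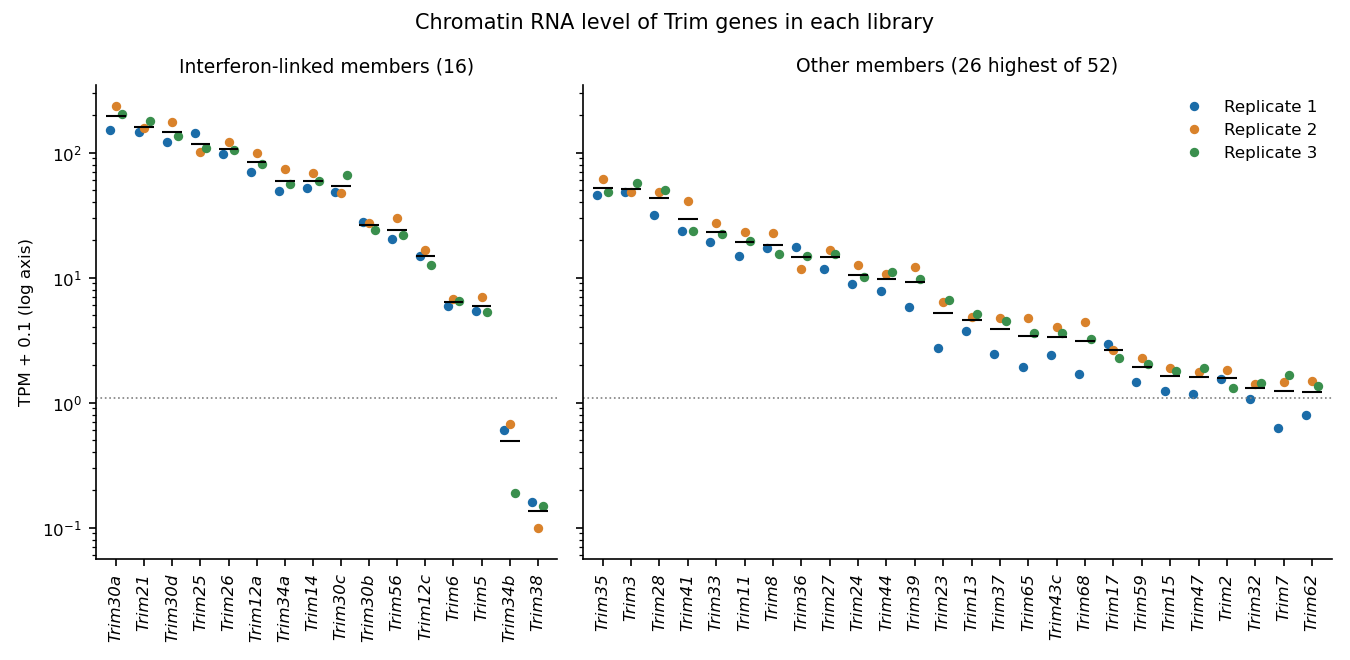
TPM + 0.1 (log axis) of each interferon-linked member (left) and of the 26 other members of highest mean (right), with a point for each of the 3 libraries and a bar at their mean. The dotted line marks a TPM of 1; 12 interferon-linked members and 10 others had a mean of at least 10 TPM, and only 2 interferon-linked members, Trim34b and Trim38, lay below the line.

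Interferon-linked members held 76.2 ± 1.03% of the family's summed TPM and 79.0 ± 0.858% of its counts. They made up 9 of the 10 highest members by alignment-based mean TPM, the exception being Trim35. The read-based quantification described below put Trim3 (72.3 TPM) in its place. There Trim3 lay above Trim30c (67.0), Trim34a (58.3) and Trim35 (53.3). Down the order of mean TPM, each member's range over libraries overlapped that of the next member down to Trim62, so the ranks of neighbours are not settled by these libraries.

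Trim30a (ENSMUSG00000030921.17, chromosome 7, 104409025 to 104465193, minus strand), which in mouse restrains Toll-like receptor signalling to NF-kB, was the highest member. It had 152, 235 and 203 TPM in replicates 1, 2 and 3, a mean of 197 ± 41.8, which gave it rank 201 among protein-coding genes, above 99.1% of them. Its neighbour and paralog Trim30d (ENSMUSG00000057596.13) had 122, 176 and 136 TPM, a mean of 145 ± 27.7. Trim30a was above Trim30d in every library, with ratios of 1.25, 1.34 and 1.49. Together this pair took 27.5 ± 2.09% of all counts of the family.

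Both other Trim30 genes were lower and clear of Trim30a in every library. Trim30c had 48.0, 47.4 and 66.1 TPM (53.8 ± 10.7) and Trim30b 27.9, 27.5 and 23.7 TPM (26.4 ± 2.28). Trim30a exceeded Trim30c by 3.74 ± 1.06-fold and Trim30b by 7.54 ± 1.79-fold.

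Trim5, Trim12a and Trim12c are the mouse relatives of the primate retroviral capsid sensor TRIM5. Trim12a had 70.4, 99.6 and 80.8 TPM (83.6 ± 14.8), whereas Trim12c had 14.9, 16.6 and 12.5 TPM (14.7 ± 2.04) and Trim5 had 5.28, 6.87 and 5.20 TPM (5.78 ± 0.94). Trim12a stood 5.72 ± 0.88-fold above Trim12c, and the ranges of the 3 genes over libraries did not overlap. Trim34a, whose human counterpart also restricts retroviral capsids, had 49.4, 74.0 and 55.6 TPM (59.7 ± 12.8). Its near copy Trim34b had 0.51, 0.57 and 0.09 TPM from 10.47, 12.80 and 2.31 expected counts. Trim6, which makes unanchored ubiquitin chains in interferon signalling, was low at 5.79, 6.66 and 6.36 TPM (6.27 ± 0.44).

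These 10 genes lie side by side in 289 kb of chromosome 7 (104218793 to 104507849), and 9 of them were expressed, beside 42.2% of protein-coding genes. They took 42.3%, 46.1% and 43.5% of the family's counts in replicates 1, 2 and 3 (44.0 ± 1.93). Levels changed sharply between neighbours. Trim34a and Trim5, which are transcribed towards each other with 1.15 kb between their ends, differed 10.3-fold, and Trim12a and Trim34b, 14.0 kb apart, differed 214-fold. Since Trim34b had few counts, that last value is uncertain, and the read-based means gave 53.0-fold. The cluster's median on the log2(TPM + 0.1) scale was 5.19 ± 0.01, and that of the 6 interferon-linked members elsewhere was 6.27 ± 0.11.

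**Figure D2:**
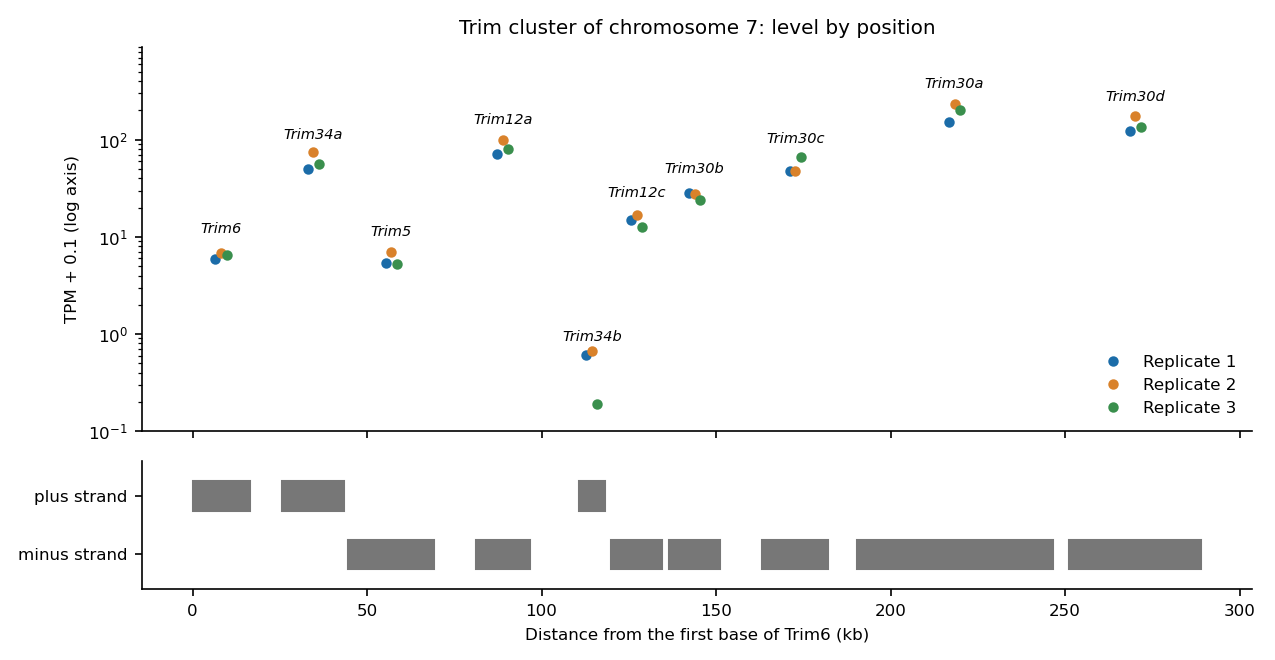
TPM + 0.1 (log axis) of the 10 Trim genes of the chromosome 7 cluster in each library, plotted at the middle of each gene by distance from the first base of Trim6 (kb), above the extent and strand of each gene. Trim30a and Trim30d at the right end were the highest, and Trim34b in the middle was the 1 unexpressed gene.

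Of the interferon-linked members outside the cluster, 5 of 6 were expressed, beside 42.2% of protein-coding genes. All 5 exceeded the median expressed gene in every library, beside 18.6% of protein-coding genes. Trim21 (ENSMUSG00000030966.13), the cytosolic receptor for antibody-coated particles, had 145, 157 and 179.6 TPM, a mean of 161 ± 17.7. Trim25 (ENSMUSG00000000275.16), which ubiquitinates the viral RNA sensor RIG-I, had 143, 100.1 and 109 TPM, a mean of 117 ± 22.4. Trim26, a regulator of interferon-beta production, had 97.6, 120.5 and 104.6 TPM, a mean of 108 ± 11.7. Trim25 was highest in replicate 1, while Trim21 was highest in replicate 3 and Trim26 in replicate 2.

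Trim14, a member without a RING domain that works as an adaptor of mitochondrial antiviral signalling, had 52.0, 68.0 and 58.7 TPM (59.5 ± 8.03). Trim56, which acts in cytosolic DNA sensing, had 20.1, 29.7 and 21.8 TPM (23.9 ± 5.08). Trim38, a feedback regulator of these pathways, was the exception, with 1, 0 and 1 counts and 0.06, 0 and 0.05 TPM.

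Of 5 genes listed as sensors or adaptors these ligases act on, 4 were found by symbol. Mb21d1, the gene of the DNA sensor cGAS, was not and has no value here. Ifih1, which encodes the RNA sensor MDA5, had a TPM of 214 ± 39.6 and Ddx58, which encodes RIG-I, 149 ± 16.8. Their adaptor Mavs had 4.13 ± 0.66, and Tmem173, the gene of the DNA-pathway adaptor STING, had 4.46 ± 0.19. All 12 genes of the activating enzyme and of conjugating enzymes listed for RING ligases were expressed, beside 42.2% of protein-coding genes. In every library 10 of them lay above the median expressed gene, beside 18.6% of protein-coding genes. Among these Ube2d3 had 104 ± 31.6 TPM, Ube2d2a 76.8 ± 9.86 and Ube2n, which forms the chains used in NF-kB signalling, 35.7 ± 3.02.

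Members of the family under other symbols, which the naming rule leaves out, were present as well. Pml, the interferon-induced scaffold of nuclear bodies, had 112, 59.1 and 41.2 TPM. Mid1, a microtubule-bound ligase, had 52.4, 51.2 and 43.1 TPM, and Mefv, which encodes the inflammasome sensor pyrin, 44.4, 44.1 and 24.0 TPM. Mid2 had no expected count. Pml, Mid1 and Mefv were each highest in replicate 1 and lowest in replicate 3. The read-based mean was 187 TPM for Mid1, against 48.9 alignment-based, and 0.81 TPM for Mid2, so the level of Mid1 differs several-fold between the quantifications.

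Among the other members, 3 of 4 chromatin regulators with a PHD finger and bromodomain were expressed, beside 42.2% of protein-coding genes. Trim28, the co-repressor that KRAB zinc finger proteins recruit to silence retroelements, had 31.6, 48.3 and 49.7 TPM (43.2 ± 10.1). Trim33, a regulator of SMAD signalling, had 19.3, 27.5 and 22.2 TPM (23.0 ± 4.15), and Trim24, a nuclear receptor co-regulator, had 8.79, 12.5 and 9.95 TPM (10.4 ± 1.89). Each of these 3 was lowest in replicate 1. Trim66, a testis-enriched gene of the class, had 0.10 ± 0.06 TPM.

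The 2 highest members of the other list were Trim35, at 45.4, 61.7 and 48.1 TPM (51.7 ± 8.74), and Trim3, at 48.0, 48.2 and 56.6 TPM (50.9 ± 4.95). Trim3 belongs to the class with an NHL repeat domain, known from RNA binding and neuronal functions. It stood well apart from its class, in which Trim2 had 1.46 ± 0.27 TPM, Trim32 had 1.21 ± 0.21 without reaching 1 in every library, and Trim71, an embryonic gene, had no count. After these and Trim28, Trim41 followed at 23.7, 40.7 and 23.5 TPM (29.3 ± 9.88). Its TPM was highest in replicate 2, but on the log2 CPM scale replicate 1 lay 0.37 above the mean of the other libraries.

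Several members between 5 and 20 TPM are known from signalling or the control of protein stability. Trim11 had 19.1 ± 4.12 TPM, Trim27 14.5 ± 2.54 and Trim39 9.16 ± 3.15. Trim8, a positive regulator of NF-kB signalling that lacks a C-terminal domain, had 18.3 ± 3.80. Trim44, which has a zinc finger of deubiquitinases in place of the RING, had 9.71 ± 1.76. Trim23, whose C-terminal domain is a GTPase of the ARF type, had 2.66, 6.25 and 6.55 TPM, with replicate 1 well below the others.

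Low but expressed were both members with a transmembrane segment, Trim13 (4.48 ± 0.77) of the endoplasmic reticulum and Trim59 (1.83 ± 0.43). Trim37, the MATH domain member that controls centrosomes, had 3.81 ± 1.26 TPM and Trim65, which ubiquitinates MDA5, 3.34 ± 1.42. Of 7 regulators of innate sensing in the other list, 5 were expressed, beside 42.2% of protein-coding genes. The 7 were Trim8, Trim13, Trim23, Trim27, Trim31, Trim32 and Trim65, with a list median of 2.04 ± 0.50 on the log2(TPM + 0.1) scale. That lies below the interferon-linked median of 5.76, and did so in each library. Without a RING domain, Trim16 had 0.47 ± 0.22 TPM and Trim29 0.043 ± 0.059. The filamin-domain member Trim45 had 0.50 ± 0.15.

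Members known from muscle, the nervous system, germ line and embryo, and red cells were mostly below the threshold. By alignment-based TPM, none of 4 muscle genes, 3 neural genes and 2 erythroid genes was expressed, and 1 of 9 germ line or embryo genes was. The share over all protein-coding genes was 42.2%, and most of these groups are too small to set against it. The read-based table added 1 muscle gene, Trim63, and 1 neural gene, Trim67. In the microtubule-binding classes with a COS box, alignment-based values gave 0 of 3 for the short form (Trim54, Trim55 and Trim63) and 1 of 4 for the form with fibronectin and SPRY domains. That gene was Trim36, at 17.6, 11.6 and 14.8 TPM (14.7 ± 3.03), while the axonal Trim46 had 0.52 ± 0.16. The expressed embryo gene was Trim43c, at 3.26 ± 0.85 TPM. In Trim43c, 38.6% of exon bases lie under 9330159M07Rik on the opposite strand, which had 22.2 ± 8.58 TPM. Since it is not stated whether counting used strand, its own level cannot be told apart from that gene's.

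No member of the interferon-linked list lacked counts altogether, and 15 of the 52 others had none in any library, beside 32.6% of protein-coding genes. At 3 counts, a count of 0 allows a share of up to 2.91e-05%, 1.68e-05% and 1.71e-05% of the counts in replicates 1, 2 and 3, for counting error only. Besides the genes named, Trim9, Trim10, Trim31, Trim40, Trim42, Trim52, Trim58, Trim60, Trim61, Trim67 and Trim80 were in this group. Trim10, Trim40 and Trim31 stand in a row on chromosome 17 behind Trim26 and Trim15. Trim26, at 108 TPM, and Trim15, at 1.54 TPM, have 1.29 kb between them and differed 70.0-fold.

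The read-based quantification, which assigns reads to transcripts without a genome alignment step, gave different values, and not for the lowest members alone. Mean read-based TPM was 258 against 197 for Trim30a, 158 against 117 for Trim25 and 98.2 against 59.5 for Trim14. Of the 37 expressed members, 17 stayed within their SD. The read-based value was 1.21-fold the alignment-based value for the median expressed member and 1.31-fold for the median expressed protein-coding gene. More than 2-fold higher were 9 of 46 members with at least 1 TPM in either, beside 32.3% of protein-coding genes, and 0 were more than 2-fold lower, beside 0.202%.

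Of the 15 members without counts, 3 had at least 1 read-based TPM in every library, beside 9.13% of protein-coding genes without counts. Trim52 had 15.6, 20.2 and 14.5 read-based TPM, nearly all on 1 noncoding isoform (ENSMUST00000194236.1, mean 16.7) and 0.028 on its protein-coding isoform. Trim63, the muscle ligase MuRF1, had 3.66, 4.34 and 5.70, mostly on an isoform with a retained intron (3.68 of a mean of 4.57). Trim67 had 1.41, 1.48 and 1.25. These 3 genes are therefore listed at 0 by 1 quantification and detected by the other, and their level is unsettled.

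Trim34b, Trim43b, Trim50, Trim65, Trim37 and Trim6 were the remaining members that differed more than 2-fold. Trim6 had 12.8 read-based TPM against 6.27, Trim65 8.15 against 3.34 and Trim37 7.88 against 3.81. Trim34b had 1.88 against 0.39, Trim43b 2.12 against 0.32 and Trim50 1.31 against 0.080, and their alignment-based values rest on 1 to 19.0 expected counts a library. Trim34b was the 1 interferon-linked member expressed by the read-based table alone. Read-based values put 15 of 16 interferon-linked members and 25 of 52 others at or above the threshold, beside 51.8% of protein-coding genes.

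**Figure D3:**
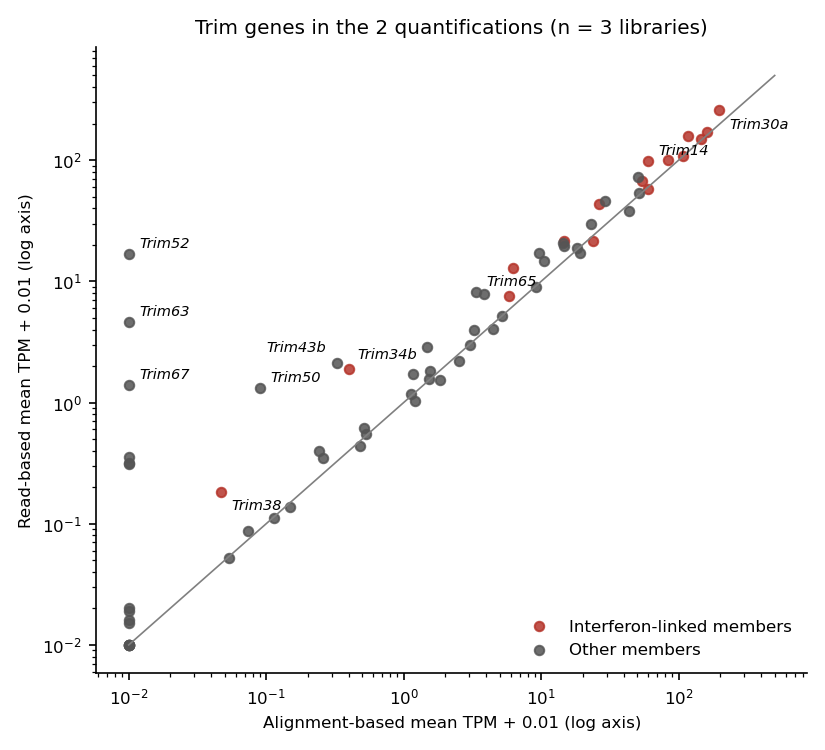
Mean read-based TPM + 0.01 against mean alignment-based TPM + 0.01 (both axes log, n = 3 libraries) for the 68 members, with the line of equal values. Most expressed members lie near or just above the line, and Trim52, Trim63 and Trim67 stand at 0 on the alignment-based axis.

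Near-identical sequence limited some members. Over 10% of their distinct 31-base words on the same strand also occurred in another gene for 13 members, while 51 shared at most 5% and the median member 0.54%. Trim34b shared 69.0% of its words, chiefly with Trim34a, and Trim34a 48.7%, chiefly with Trim34b. Trim5 shared 52.9% and Trim12c 47.7%, chiefly with each other, and the 3 Trim43 genes shared 58.6% to 64.5%. The highest members of the cluster shared less, with 11.7% for Trim30a, 11.9% for Trim30d and 15.7% for Trim12a. In Trim14, 31.3% of exon bases lie opposite to Nans, which had 5.80 ± 1.14 TPM and a read-based mean of 13.0 TPM. Since strand use is not stated, how much of the Trim14 level comes from Nans is not known.

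Isoforms annotated with a retained intron, in which an intron is still part of the transcript, were present in the annotation of 17 of the 37 expressed members. Their share of the gene's TPM had a median of 35.5%, 41.5% and 46.7% in replicates 1, 2 and 3 (41.2 ± 5.60), beside 47.0 ± 1.49% over 5969 protein-coding genes. In 6 interferon-linked members the median was 32.3 ± 2.29%, and in 11 others it was 49.4 ± 11.1%. Above 50% were 1 of 6 interferon-linked members and 5 of 11 others, beside 44.2% of protein-coding genes.

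The interferon-linked member above 50% was Trim21, with 79.0%, 69.8% and 70.7% of its TPM on 3 such isoforms. In Trim30a the share was 11.8%, 14.1% and 16.3%, the lowest mean of the 17 members by alignment-based TPM. Read-based TPM gave Trim30a 19.6%, 38.6% and 37.3%. That mean of 31.8% lay above those of Trim30b (13.2%), Trim59 (16.4%), Trim12a (22.2%) and Trim35 (31.1%), so its rank is not settled. By expected counts, which are not scaled by length, Trim21 had 1656, 2529 and 3139 while Trim30a had 5672, 10655 and 10018. The 5 others were Trim68 (73.5 ± 3.96%), Trim24 (70.8 ± 7.15%), Trim28 (68.9 ± 4.96%), Trim3 (68.1 ± 1.85%) and Trim27 (52.5 ± 7.72%). Trim68 rests on only 22, 64 and 50 expected counts. By read-based TPM, Trim27 had a mean of 49.4%, while Trim2 (56.9%) and Trim33 (51.1%) lay above 50%. In Trim28, where 8 of 10 annotated isoforms are of this type, protein-coding isoforms made up 9.16 ± 4.39% of the TPM.

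**Figure D4:**
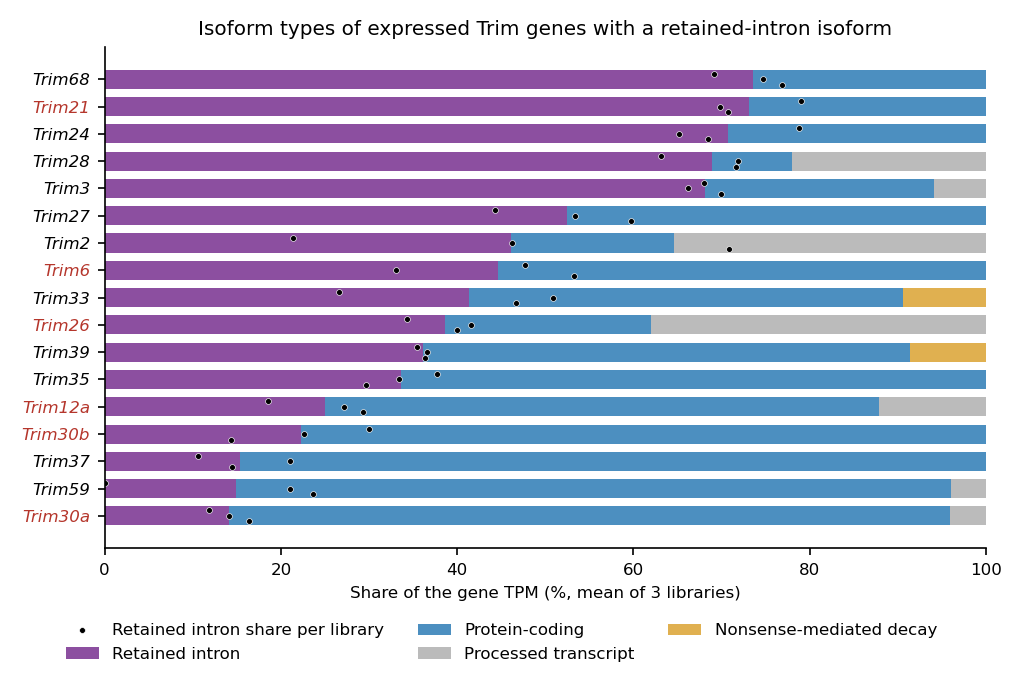
Share of gene TPM (%) by annotated isoform type for the 17 expressed members with a retained-intron isoform, as bars at the mean of 3 libraries, with the retained-intron share of each library as points and interferon-linked members named in red. By the alignment-based TPM drawn here, Trim68, Trim21 and Trim24 lie above 70% and Trim30a is lowest at 14.1%.

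Replicate 1 had the lowest TPM in 27 of 37 expressed members, beside 63.5% of expressed protein-coding genes, in 9 of 14 interferon-linked members and in 18 of 23 others. After TMM normalisation, the SD over libraries of log2(CPM + 0.5) had a median of 0.19 over 37 members, 0.15 over 14 interferon-linked members, 0.26 over 23 others and 0.24 over 9171 protein-coding genes. Leaving out replicate 1 brought each of these 4 medians to 0.12. The interferon-linked median was as low without replicate 2 (0.11) or replicate 3 (0.12), so leaving out replicate 1 lowered it no more than leaving out another. On the log2 CPM scale, replicate 1 lay above the mean of the others in 10 of 14 interferon-linked members. It did so in 7 of 23 others and 4435 of 9171 protein-coding genes. Without replicate 2 or 3 the median of the others was 0.26 or 0.24, and that of protein-coding genes 0.24 or 0.23. Among genes of at least 100 counts in every library, the medians were 0.15 for interferon-linked members, 0.23 for others and 0.22 for protein-coding genes.

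The 5 expressed members of highest SD were all in the other list, at 0.52 for Trim17, 0.51 for Trim36, 0.51 for Trim23, 0.44 for Trim37 and 0.40 for Trim2. On the log2 CPM scale, replicate 1 differed from the mean of replicates 2 and 3 by 0.90 in Trim17 and 0.75 in Trim36, and by -0.86 in Trim23 and -0.75 in Trim37. In Trim17, 19.0% of exon bases lie under the histone gene Hist3h2a on the same strand, which had 5.76, 12.2 and 11.7 TPM. On the opposite strand, 3.69% lie under Gm44313, at 27.7, 0 and 64.0 TPM, and 5.06% under 2310058D17Rik. All TPM of Trim17 lay on 1 isoform in replicate 1 and on another in replicates 2 and 3. Whether any of these relates to its SD was not tested. Among expressed interferon-linked members the log2 CPM difference of replicate 1 was largest in Trim30b, at 0.50, and Trim25, at 0.48. Its list median was 0.12, against -0.17 for the others and -0.02 for protein-coding genes.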

How the data were processed

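Positions and gene models are those of mm10 and GENCODE M21, per the deposited notes. The authors deposited, per library, a gene and a transcript table of expected (estimated) counts and TPM derived from an alignment, and a transcript table of estimated counts and TPM made from the reads directly, called read-based. The sources used here name no programs, versions or strand use. Samples are separate biological replicates by label, but share a donor entry and are not said to come from separate animals, so SDs may be technical. Members and lists were chosen with earlier results of these data known.

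Expressed means 1 TPM or more in each of 3 libraries. The level of a list is the median of log2(TPM + 0.1) over its members, which understates differences of low genes. Expected counts were rounded and normalised with edgeR 4.0.16 (TMM, R 4.3.3) over 13292 genes with 10 counts or more in each library, and the SD was taken on log2(CPM + 0.5). With 1 group there is no test and no p-value. Words of 31 bases came from GENCODE transcripts, and promoters from RefSeq. Gene rows numbered 81881, of which 55450 were annotated genes and the rest were left out of gene counts but stay in the totals. Named genes were all interferon-linked members, the 12 highest others, PHD-bromodomain members, the 3 highest of each other domain class, the 5 of highest SD, those above 50% retained intron, those over 2-fold apart between tables, and relatives under other symbols. The code was tested on simulated data. Alternatives covered thresholds, pseudocounts, DESeq2 1.42.0 size factors, the read-based tables, list choice and leaving out each replicate.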

Additional observations from a re-analysis of the deposited data

How the results depend on the processing

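The interferon-linked median lay above the other median under each alternative run, and the difference, 5.92 on the log2(TPM + 0.1) scale, was 4.92 with a pseudocount of 1, 2.84 with expressed members only, 5.29 from read-based TPM, 4.63 with means over members, 5.07 with the broader list that adds sensing regulators and 6.43 without the chromosome 7 cluster. Leaving out members that share over 10% of their words, an alternative added after the data were seen, gave 6.32, with the other median at -0.65. The interferon-linked median itself was 5.93 with expressed members only, 5.95 read-based, 7.53 with TPM rescaled over protein-coding genes, 6.81 with CPM, 4.61 as a mean, 4.18 for the broader list and 6.27 without the cluster. The other median was 0.86 with a pseudocount of 1, 3.09 with expressed members only, 0.66 read-based, 1.49 rescaled and 1.02 with CPM. Counts of expressed members changed to 5 interferon-linked members without the cluster, which holds 10 of the 16, and to 12 others at a TPM threshold of 5. The retained intron share was 29.2% by expected counts and 47.6% read-based, the cluster's share of counts was 46.1% read-based, and the median member stood at 2.98 TPM read-based against 1.75 alignment-based. Read-based values moved 20 of the 37 expressed members by more than their SD, 19 of them upwards. The same share over all genes was not computed. Read-based values were also higher over all expressed protein-coding genes, at a median of 1.31-fold against 1.21-fold for members. The cause was not tested. Leaving out each replicate in turn gave a difference of 5.82 to 5.98, interferon-linked medians of 5.72 to 5.83, other medians of -0.26 to 0.01, 37 to 40 expressed members and a retained intron share of 38.5% to 44.1%. The median SD over members was 0.12, 0.17 and 0.19 without replicates 1, 2 and 3, against 0.19 with all libraries. No paired analysis was possible because all libraries belong to 1 group. Depth limits the lowest members, 16 of the 31 unexpressed having some counts. The counting of opposite strands and near copies limits Trim43c, Trim14, Trim34b and Trim5.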

Other observations

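Outside the chromosome 7 cluster, neighbouring members also stood at unlike levels. Trim41 and Trim7 lie 8.79 kb apart on chromosome 11 and differed 25.5-fold, at 29.3 ± 9.88 and 1.15 ± 0.55 TPM. On the same chromosome, Trim11 and Trim17 lie 4.99 kb apart and differed 7.57-fold, at 19.1 ± 4.12 and 2.52 ± 0.33 TPM.

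Genes with related names that the naming rule leaves out had no expected count in any library. Their read-based means were 3.64 TPM for Triml1, 1.68 TPM for Triml2 and 0.031 TPM for the pseudogene Trim30e-ps1.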
